A study of Rattus norvegicus with 3 samples.

Results

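A set of 10 markers of blood vessel endothelium was described across tissue around an implant, a healed extraction site and tissue around a tooth: Pecam1, Cdh5, Tek, Tie1, Emcn, Plvap, Vwf, Esam, Eng and Kdr. The genes were taken by symbol from the array annotation, in which 9 of the 10 had a probe set (several short probes summarised as 1 value). Cdh5, which encodes the endothelial cadherin of adherens junctions, had none named for it and is not analysed here. The 9 genes stand among 14217 named genes, with 10 of 20826 named probe sets, since Kdr has 2.

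RNA was measured on 1 rat GeneChip array per tissue, from male wild-type Sprague Dawley rats aged 9 weeks at harvest. Peri-implant connective tissue (PICT) came from upper first molar sockets that received a titanium alloy implant straight after extraction at 5 weeks of age. Oral mucosa connective tissue (OMCT) came from upper first molar sites left to heal after extraction, and both were taken 4 weeks after surgery. Periodontal connective tissue (PCT) came from around an upper first molar in place. All were cut out by laser microdissection. The sample labels name rat throughout, although the series' design text once names mice for PCT. The number of animals per array is unstated in the sources used here. With 1 array per tissue no test could be run, and no difference below has a check between animals.

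Endothelial cells line every vessel and hold to each other through junction proteins. They answer vascular endothelial growth factor through Kdr and angiopoietins through Tek, and these inputs govern sprouting and the quiescence of mature vessels. Gingiva and periodontal ligament are richly supplied with capillaries, part of them fenestrated, and granulation tissue in a healing socket grows many new vessels before it matures.

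The arrays differed in overall brightness. The median intensity was 56.5 in PICT, 57.4 in OMCT and 34.3 in PCT, and as log2 values these medians exceeded that of PCT by 0.60 in PICT and 0.62 in OMCT. Differences are therefore given as log2(intensity + 8.56) relative to each array's median, unless "as deposited" is written. The words higher and lower, used as calls, need a relative difference of 1 or more (2-fold), with the gene at or above the median of whichever array was brighter. Probe sets of the same gene differed from each other with an SD of 0.44 for PICT minus PCT, 0.41 for PICT minus OMCT and 0.41 for OMCT minus PCT, a technical yardstick that holds no spread between animals. The ratio of 3′ to 5′ Hk1 controls, a measure of RNA shortening, was 1.58 in PICT, 1.97 in OMCT and 2.80 in PCT. That of GAPDH controls was 1.12 in PICT, 1.20 in OMCT and 1.46 in PCT. The part of RNA shortening in the results was not tested. The RNA was not of connective tissue alone. Krt5, a basal epithelial keratin, had an intensity of 7965 in PICT, 8595 in OMCT and 9565 in PCT, beside the collagen gene Col1a1 at 5552 in PICT, 8189 in OMCT and 6651 in PCT. In such bulk RNA, fewer endothelial cells and less RNA per endothelial cell cannot be told apart.

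The promoters of 4 members are printed here because these genes shared a direction in PICT and had the largest differences there among the 5 members that the promoter table held (Plvap, Eng, Emcn, Tie1 and Kdr). The windows run from 250 bases before to 50 bases after the gene start, 5′ to 3′, and come from RefSeq on build GRCr8. Capitals mark AGGAAG or its reverse complement CTTCCT, a core sequence of the ETS family of transcription factors, to which the endothelial regulators Erg and Fli1 belong.
Plvap, chr16:18231230-18231529, minus strand: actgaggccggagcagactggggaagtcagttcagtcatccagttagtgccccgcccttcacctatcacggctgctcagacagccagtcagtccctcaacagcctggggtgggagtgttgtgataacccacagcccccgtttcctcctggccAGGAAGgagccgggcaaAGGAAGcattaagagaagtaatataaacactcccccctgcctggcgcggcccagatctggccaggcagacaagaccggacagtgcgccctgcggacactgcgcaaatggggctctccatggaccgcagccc
Eng, chr3:36332029-36332328, plus strand: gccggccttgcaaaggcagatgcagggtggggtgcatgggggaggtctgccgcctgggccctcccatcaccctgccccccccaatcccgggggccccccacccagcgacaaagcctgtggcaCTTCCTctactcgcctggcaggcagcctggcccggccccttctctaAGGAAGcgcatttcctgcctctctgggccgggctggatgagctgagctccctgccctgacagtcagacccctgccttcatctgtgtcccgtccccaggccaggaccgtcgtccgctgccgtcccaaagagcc
Emcn, chr2:228564289-228564588, plus strand: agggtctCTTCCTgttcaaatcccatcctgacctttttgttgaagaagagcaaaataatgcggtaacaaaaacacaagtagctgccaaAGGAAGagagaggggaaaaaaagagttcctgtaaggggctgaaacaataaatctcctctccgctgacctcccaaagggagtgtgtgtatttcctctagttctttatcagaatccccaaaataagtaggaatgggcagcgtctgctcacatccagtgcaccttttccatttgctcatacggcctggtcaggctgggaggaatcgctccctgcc
Tie1, chr5:137304932-137305231, minus strand: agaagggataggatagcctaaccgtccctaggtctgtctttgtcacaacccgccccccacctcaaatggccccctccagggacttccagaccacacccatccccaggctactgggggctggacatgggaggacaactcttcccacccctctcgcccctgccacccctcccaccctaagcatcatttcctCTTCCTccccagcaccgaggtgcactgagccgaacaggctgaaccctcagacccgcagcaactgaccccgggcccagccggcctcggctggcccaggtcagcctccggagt
These letters were found in 4 of the 5 member windows, which are the 4 printed and not that of Kdr, and in 34.3% of 27457 rat promoters of the same length. In the Plvap window they begin 98 and 81 bases before the gene start, both on the gene's strand, and a TATAAA match begins 60 bases before it. That match was found in 1 of the 5 windows and in 14.3% of all. CACCC, a core of Klf factors, was in 4 of 5 windows (Plvap, Eng, Tie1 and Kdr) and in 55.1% of all. AACAAT, a Sox core, was in that of Emcn alone and in 11.6% of all. AGATAA, a form of the core read by factors such as Gata2, was in 0 of 5 and in 11.3% of all. Other forms were not searched, such as TGATAA, which stands in the printed Plvap window and, as its reverse complement TTATCA, in that of Emcn. Other ETS forms were not searched either. GGAAGT, as its reverse complement ACTTCC, stands in the window of Kdr. Both strands were searched for each motif, 0 matches in the member windows overlapped each other, and a match is a description of letters only.

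Most vessel markers were well above the array medians, with Plvap in PICT almost on it, and PICT held the lowest relative level for 8 of the 9. The exception was Tek, lowest in OMCT. All 9 lay above the array median in each tissue and above the highest negative control, which was 8.36 in PICT, 3.60 in OMCT and 5.71 in PCT. As the plot of intensities shows, OMCT was also the brightest array as deposited for 8 of them.

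**Figure D1:**
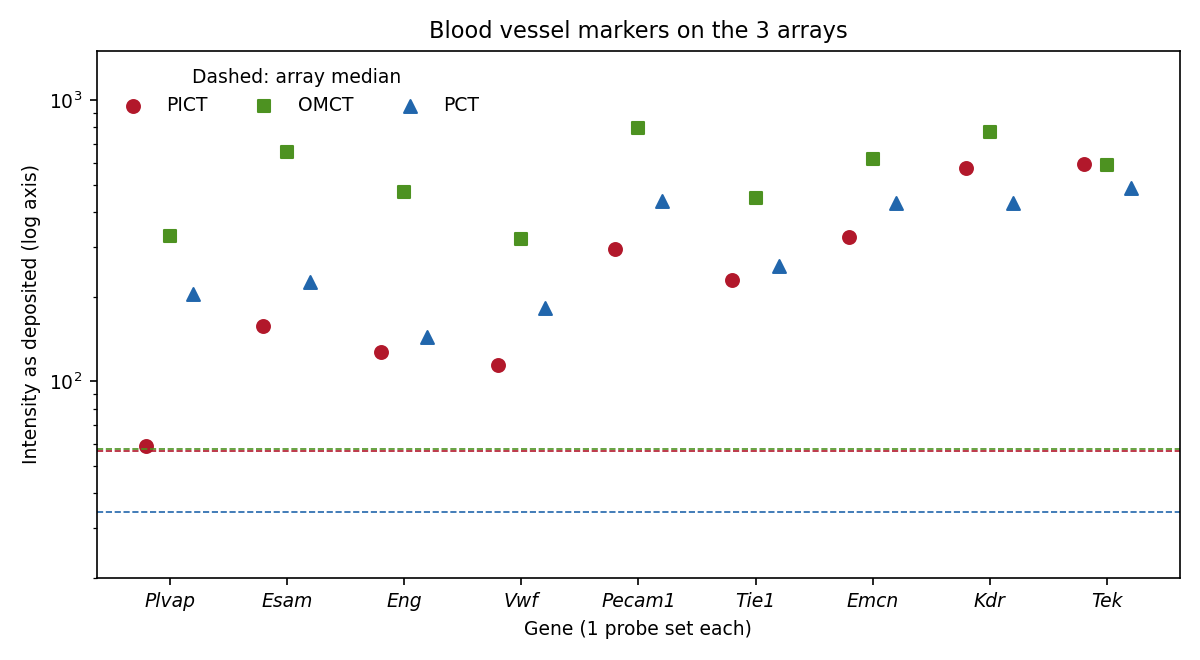
Intensity as deposited, on a log axis, of the 9 measured vessel markers in PICT (circles), OMCT (squares) and PCT (triangles), 1 array each, with the median of each array dashed. Plvap in PICT, at 59.0, sits almost on the array median of 56.5, while Tek has nearly the same value in PICT (592) and OMCT (588).

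Among the surface and junction proteins, Plvap stood furthest apart. Plvap (probe set 1368284_at) forms the diaphragms of fenestrae and caveolae in permeable capillaries. Its intensity was 59.0 in PICT, 329 in OMCT and 204 in PCT. It stood at percentile 50.9 of the PICT array, against percentile 85.8 in OMCT and 85.9 in PCT. The relative difference was -2.26 for PICT minus PCT and -2.30 for PICT minus OMCT, and 0.04 for OMCT minus PCT. Only 0.25% of all genes had a lower difference in PICT minus PCT and 0.44% in PICT minus OMCT. As deposited, Plvap was the only member past 2-fold between PICT and PCT, at -1.66.

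Pecam1 (1371545_at) encodes CD31, an adhesion molecule of endothelial junctions that platelets and leukocytes also carry. It had 295 in PICT, 795 in OMCT and 437 in PCT, so that PICT was lowest. The relative difference was -1.16 for PICT minus PCT and -1.38 for PICT minus OMCT. Esam (1388703_at), a tight junction adhesion molecule of endothelium and platelets, had 158 in PICT, 652 in OMCT and 225 in PCT. On the relative scale PCT lay between PICT and OMCT. The differences were -1.97 for PICT minus OMCT, -1.09 for PICT minus PCT and 0.88 for OMCT minus PCT. Emcn (1372587_at), endomucin, is a sialomucin of capillary and venous endothelium. It had 326 in PICT, 616 in OMCT and 430.1 in PCT, with differences of -0.99 for PICT minus PCT and -0.88 for PICT minus OMCT, neither reaching 2-fold; with a pseudocount of 1 the first was -1.10.

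Vwf (1389234_at), the glycoprotein that tethers platelets and is stored in endothelial granules, had 114 in PICT, 322 in OMCT and 183 in PCT. Its differences, -1.24 for PICT minus PCT and -1.41 for PICT minus OMCT, were close to those of Pecam1. PICT was again the lowest array and OMCT minus PCT was 0.17.

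Receptors split. Eng (1372579_at), endoglin, is a co-receptor for ligands of the TGF-beta family and is also made by some fibroblasts and macrophages. It had 127 in PICT, 470.4 in OMCT and 144 in PCT. It was 1 of the members lower in PICT than in OMCT, at -1.80, and the only member past 2-fold between OMCT and PCT, at 1.03; PICT minus PCT was -0.77. Tie1 (1389324_at), an orphan receptor kinase that modulates Tek, had 229.9 in PICT, 447 in OMCT and 257 in PCT, with differences of -0.76 for PICT minus PCT and -0.91 for PICT minus OMCT.

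Kdr and Tek, the receptors for vascular endothelial growth factor and for angiopoietins, differed least in PICT. Kdr (1367948_a_at) had 576 in PICT, 774 in OMCT and 432 in PCT, with a difference of -0.40 for PICT minus OMCT and -0.19 for PICT minus PCT, which was 0.41 as deposited. Its other probe set, 1397868_at, read 0.904 in PICT, 1.84 in OMCT and 0.633 in PCT, below the highest negative control of each, and gives no check. Tek (1393067_at) had 592 in PICT, 588 in OMCT and 486 in PCT. Its difference was 0.03 for PICT minus OMCT and -0.32 for PICT minus PCT, which was 0.28 as deposited. The 4 relative differences of Kdr (1367948_a_at) and Tek between PICT and the other tissues lay within the SD between probe sets of the same gene.

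**Figure D2:**
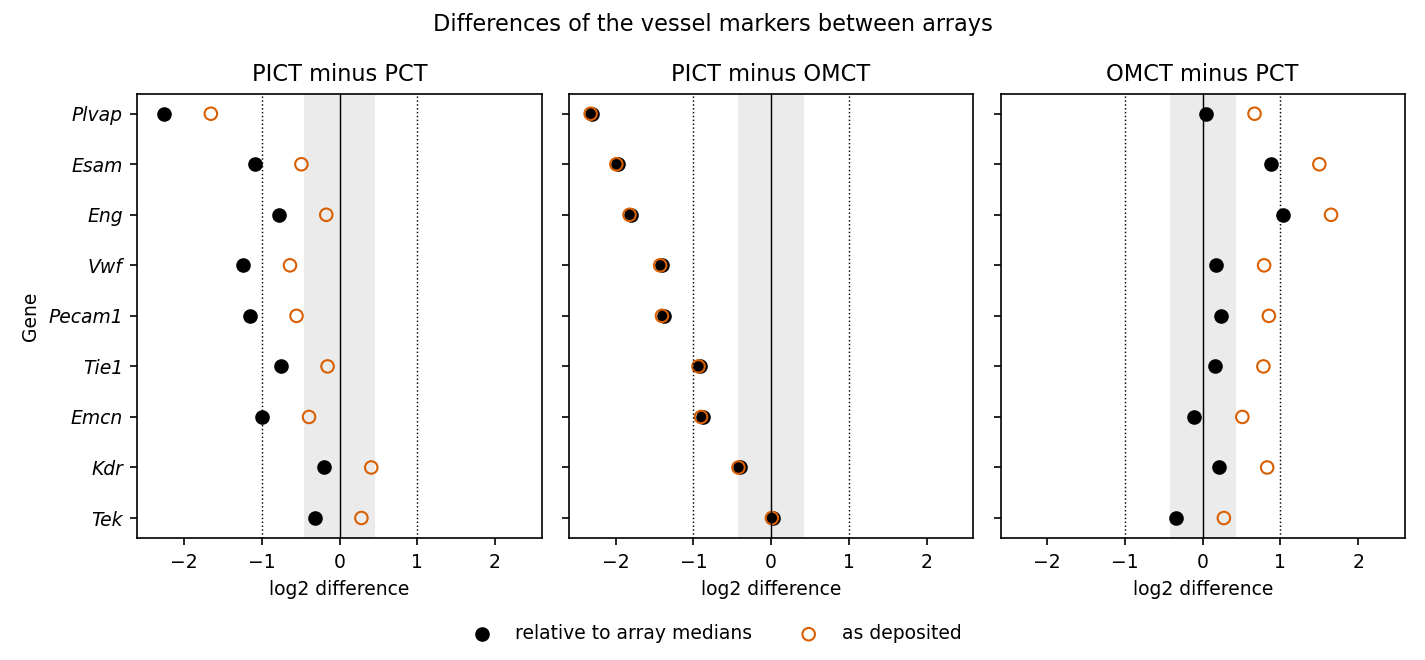
Log2 difference of each vessel marker in the 3 comparisons, relative to array medians (filled) and as deposited (open), with the 2-fold lines dotted and the SD between probe sets of the same gene shaded. Between PICT and OMCT the scalings nearly coincide and run from -2.30 for Plvap to 0.03 for Tek, whereas both comparisons with PCT shift by about the difference in array medians.

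Against the tooth site, 4 of the 9 members were at least 2-fold lower in PICT (Plvap, Vwf, Pecam1 and Esam), 0 were higher and 5 were neither. Over all genes 3.37% were lower and 3.98% higher by this rule. The median member difference was -0.99, against -0.13 over all genes, and all 9 relative differences were below 0. As deposited 1 member was lower and 0 higher, where 0.9% of all genes were lower and 14.1% higher; the median was then -0.39 against 0.47 over all genes, and 2 members, Tek and Kdr, lay above 0. Another 3619 genes whose mean level lay in the members' range had a median of -0.02, with 3.70% lower. With a pseudocount of 48.4, the median of all values, 1 member was lower, and with a pseudocount of 1, 5 were.

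Against the healed site, 5 of 9 members were lower in PICT (Plvap, Esam, Eng, Vwf and Pecam1), 0 were higher and 4 were neither. Of all genes 4.46% were lower and 4.15% higher. The median member difference was -1.38, against -0.04 over all genes and -0.03 over genes of like level. As deposited the counts were again 5 lower and 0 higher, beside 4.64% and 3.98% of all genes, and the median was -1.40. Plvap, Esam, Eng, Vwf and Pecam1 were each between 2.70 and 5.58 times as bright in OMCT as in PICT.

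Between OMCT and PCT Eng was higher, 0 of 9 members were lower and 8 were neither. Of all genes 5.66% were higher and 4.81% lower. The median was 0.17, against -0.08 over all genes. With a pseudocount of 1 the count higher was 0. As deposited Eng and Esam were higher, at 1.65 and 1.50, where 17.6% of all genes were higher and 2.1% lower, and the median was 0.79 against 0.54 over all genes. The comparisons share arrays, so their values for a gene are not independent.

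**Figure D3:**
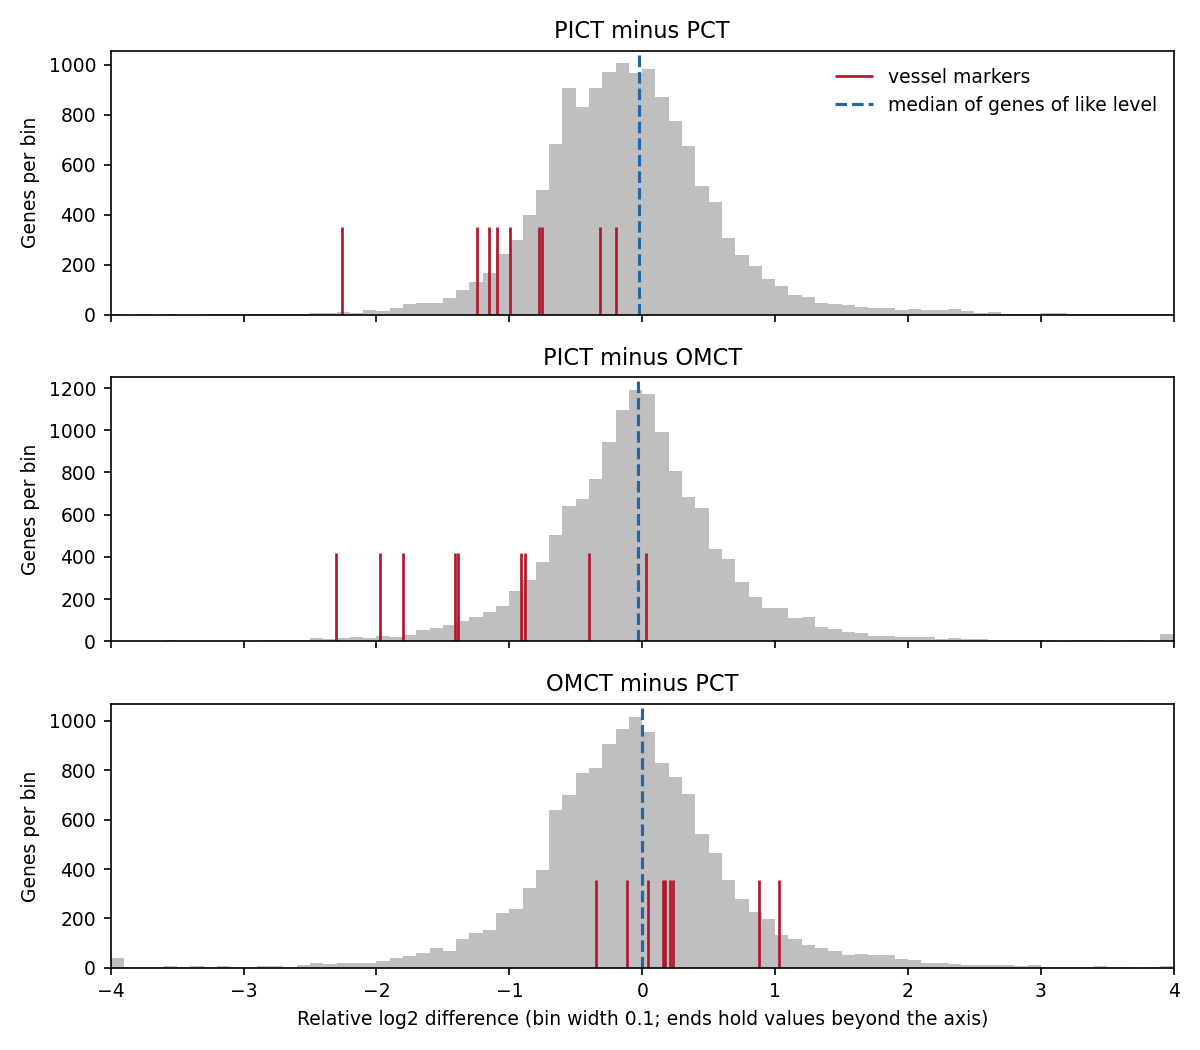
Number of genes per bin of relative log2 difference (grey) in the 3 comparisons, with the 9 vessel markers as vertical lines and the median of 3619 genes of like level dashed. The markers lie left of that median in PICT minus PCT, and in PICT minus OMCT for all but Tek, while in OMCT minus PCT they lie on both sides of it.

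The members did not all differ by the same amount. Around the members' own median, differences in PICT minus PCT ran from -1.26 (Plvap) to 0.80 (Kdr), and in PICT minus OMCT from -0.92 (Plvap) to 1.41 (Tek). The SD over the 9 genes was 0.60 and 0.76 in these comparisons, and 0.44 in OMCT minus PCT. Without Plvap it was 0.39 for PICT minus PCT, 0.68 for PICT minus OMCT and 0.46 for OMCT minus PCT. The medians were then -0.88, -1.15 and 0.19. In OMCT minus PCT the members furthest above their median were Eng, by 0.86, and Esam, by 0.71.

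Other vessel genes were read from 6 lists, of which 73 genes had a probe set. In PICT minus PCT 15 were lower, 3 higher and 55 neither, with a median of -0.59; as deposited 2 were lower and 8 higher, with a median of 0.01, so the balance of directions rests on the scaling. In PICT minus OMCT 22 were lower, 4 higher and 47 neither (median -0.72; as deposited 24 lower and 3 higher). In OMCT minus PCT 4 were lower, 11 higher and 58 neither (median 0.22; as deposited 0 lower and 30 higher, median 0.84). Of all genes, 3.37% were lower and 3.98% higher in PICT minus PCT (0.9% and 14.1% as deposited), 4.46% and 4.15% in PICT minus OMCT (4.64% and 3.98%), and 4.81% and 5.66% in OMCT minus PCT (2.1% and 17.6%). The 3 higher genes in PICT minus PCT are thus about the share found over all genes, and the 8 as deposited are below it.

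Among ligands and receptors of the growth factor and angiopoietin systems, 2 of 12 were lower and 1 higher in PICT when set against PCT, and 6 were lower and 2 higher when set against OMCT. Flt1, a decoy-like receptor for the same growth factor as Kdr, had 115 in PICT, 277 in OMCT and 157 in PCT, with differences of -1.03 for PICT minus PCT and -1.19 for PICT minus OMCT. It thus lay further down in PICT than Kdr did, at -0.19 and -0.40. Ptprb, the phosphatase that restrains Tek, differed by -1.18 in PICT minus PCT. Vegfa, the main Kdr ligand, had 252 in PICT, 122 in OMCT and 224 in PCT. It was lowest in OMCT, with a difference of 1.01 for PICT minus OMCT and -1.45 for OMCT minus PCT. For PICT minus PCT it was -0.44. Angptl4, a secreted lipase inhibitor, was higher in PICT than in either other tissue, at 245 in PICT, 71.4 in OMCT and 22.9 in PCT.

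Several genes of these lists were brightest in OMCT. Esm1, a proteoglycan of endothelial tip cells, had 17.1 in PICT, 377 in OMCT and 28.5 in PCT, a difference of -3.89 for PICT minus OMCT and 2.76 for OMCT minus PCT. Angpt2, the angiopoietin that loosens vessels, had 50.8 in PICT, 140.5 in OMCT and 38.3 in PCT, and differed by -1.31 in PICT minus OMCT and 1.05 in OMCT minus PCT. Apln, a peptide of tip cells, differed by -1.91 in PICT minus OMCT and by 0.99, just under 2-fold, in OMCT minus PCT. Vegfb was lower in PICT than in OMCT, at -1.79, and Nrp2, a co-receptor of lymphatic and venous endothelium, was higher in OMCT than in PCT, at 1.35.

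Of 16 junction and surface genes, 3 were lower in PICT than in PCT and 6 lower than in OMCT, with 0 higher in either. Cldn5, the main claudin of endothelial tight junctions, had 83.2 in PICT, 223 in OMCT and 196 in PCT, a pattern like that of Plvap with smaller differences: -1.76 for PICT minus PCT and -1.31 for PICT minus OMCT. Podxl, a sialomucin of the luminal surface, differed by -1.04 and -1.43 in these comparisons. Calcrl, the receptor for adrenomedullin, was lower in PICT and in OMCT than in PCT, at -1.31 and -1.13. Cav1, the coat protein of caveolae, differed by -1.14 in PICT minus OMCT.

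The adhesion molecules for leukocytes had a list median of 0.45 for PICT minus PCT, beside -0.99 for the vessel markers. Of 6, 1 was lower and 1 higher in PICT, whichever tissue it was set against. Vcam1, which binds lymphocytes and monocytes, had 125 in PICT, 29.5 in OMCT and 33.3 in PCT, and was higher by 1.83 over OMCT and 1.07 over PCT. Sele, E-selectin, was lower in PICT than in PCT, at -1.08, and Ackr1, the chemokine carrier of venules, was lower than in OMCT, at -1.13. The list median was -0.05 for PICT minus OMCT, beside -1.38 for the vessel markers, and -0.07 for OMCT minus PCT. These medians include Madcam1, which had 20.2 in PICT, 3.97 in OMCT and 6.23 in PCT. Its values in OMCT and PCT lay close to the highest negative controls there, 3.60 and 5.71. In OMCT minus PCT the list ran from -0.86 for Madcam1 to 0.73 for Icam1.

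In the Notch, ephrin and sphingosine phosphate list 4 of 13 genes were lower and 0 higher in PICT than in PCT: Hey1, a Notch target, at -1.41, Jag2, a Notch ligand, at -1.25, Acvrl1, the endothelial receptor that signals with Eng, at -1.21, and Bmpr2 at -1.09. Acvrl1 was also the only one lower in PICT than in OMCT, at -1.33, and 0 were higher. In OMCT minus PCT S1pr1, the sphingosine phosphate receptor, was higher at 1.14 and Dll1 at 1.12.

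Among 16 transcription factors 2 were lower and 0 higher in PICT than in PCT, Epas1 at -1.19 and Gata2 at -1.03. Against OMCT 4 were lower, Erg at -1.49, Elk3 at -1.37, Epas1 at -1.27 and Fli1 at -1.01, and Klf4, which keratinocytes also make, was higher at 1.39. Erg, which maintains endothelial identity, had 67.9 in PICT, 209 in OMCT and 75.4 in PCT. In OMCT minus PCT Elk3 was higher at 1.09 and Klf4 lower at -1.39. Lyl1 was counted higher as well, but at 2.35 in PCT it lay under that array's top negative control (5.71), and no size is given for it.

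In the list of vascular tone and haemostasis, 3 of 10 genes were lower and 1 higher in PICT than in PCT. Against OMCT 4 were lower and 0 higher in PICT. Ace, the angiotensin-converting enzyme, had 28.3 in PICT, 87.9 in OMCT and 83.4 in PCT, with differences of -1.92 for PICT minus PCT and -1.37 for PICT minus OMCT. Ptgis, prostacyclin synthase, and Ece1, an endothelin-converting enzyme, were lower in PICT than in PCT, at -1.34 and -1.29. Ece1 was also lower in PICT than in OMCT, at -1.71, whereas Ptgis did not reach 2-fold there, at -0.57. Plat, tissue plasminogen activator, was higher by 1.26. Nos3, endothelial nitric oxide synthase, had 92.2 in PICT, 277 in OMCT and 76.9 in PCT, so that OMCT stood apart, by -1.48 for PICT minus OMCT and 1.12 for OMCT minus PCT.

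A pattern was made of the members' median relative level on each array. After centring it was -0.69 in PICT, 0.62 in OMCT and 0.07 in PCT. A different gene can be the median on each array, so this pattern is not that of the median differences above. The latter had OMCT minus PCT at 0.17. Among 51 list genes brighter than the median gene, Cav1, Ackr1, Mcam, Erg and Nrp1 were most like the pattern. Their Euclidean distances from the pattern were 0.12, 0.14, 0.16, 0.16 and 0.20 on the log2 scale. With 3 arrays such likeness is a description of these tissues only.

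Markers of other cells moved beside the vessel genes, and their part in the results was not tested. Summed intensities in this and the following paragraphs are as deposited, so the lower median of the PCT array enters them. Of 12 smooth muscle and pericyte markers, 2 were lower and 0 higher in PICT than in PCT, and 3 lower and 0 higher than in OMCT, with summed intensities of 2511 in PICT, 4355 in OMCT and 3126 in PCT. Rgs5, a pericyte gene, was the brightest of the 12 in each tissue and so the largest part of each sum. It had 569.8 in PICT, 1816 in OMCT and 1592 in PCT, differences of -1.64 for PICT minus OMCT and -2.07 for PICT minus PCT. Tagln, of contractile smooth muscle, had 554 in PICT, 622 in OMCT and 216 in PCT, a relative difference of 0.72 for PICT minus PCT. Other contractile genes did not share 1 direction there: Myh11 was at -0.85, Smtn at -0.06, Acta2 at 0.16 and Cnn1 at 0.42. Myh11 was also lower in OMCT than in PCT, at -1.30. All 7 lymphatic markers were measured, and 5 were lower in PICT than in OMCT while 0 of 7 passed 2-fold between PICT and PCT. In OMCT minus PCT 5 were higher and 0 lower, with a median of 1.73. The lymphatic markers summed to 1449 in PICT, 4237 in OMCT and 852 in PCT.

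Genes of red cells differed between the sections. Of 4 measured red cell genes, 3 were lower in PICT than in PCT and 3 lower in OMCT than in PCT, and they summed to 449.9 in PICT, 178 in OMCT and 872 in PCT. Hbb, a globin gene, had 415 in PICT, 129 in OMCT and 765 in PCT. The platelet genes, 5 measured, summed to 751 in PICT, 598 in OMCT and 614 in PCT; Pf4, which macrophages can also make, was higher in PICT than in PCT, at 2.41, and Ppbp was lower, at -1.11. None of the 5 passed 2-fold between PICT and OMCT. The platelet genes Gp9 and Gp5 and the red cell gene Slc4a1 did not exceed the highest negative control in any tissue. Alas2, another red cell gene, lay just above it in OMCT, at 3.94 against 3.60.

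Macrophage, fibroblast and epithelial markers differed as well. Of 10 macrophage markers 7 were higher and 0 lower when PICT was set against PCT, and they summed to 2920 in PICT, 4514 in OMCT and 282 in PCT. Of 10 fibroblast markers 4 were lower and 0 higher in PICT than in OMCT, and 6 were higher and 0 lower in OMCT than in PCT (sums of 31512 in PICT, 51023 in OMCT and 24161 in PCT). Of 10 epithelial markers 6 were higher and 1 lower when PICT was set against OMCT, and 7 were lower and 0 higher in OMCT than in PCT (sums of 37319 in PICT, 22791 in OMCT and 35787 in PCT). The fibroblast and macrophage medians in OMCT minus PCT were 1.15 and 2.89, beside 1.03 for Eng. In PICT minus PCT they were -0.04 and 2.01, beside -0.77 for Eng. In PICT minus OMCT they were -0.69 and -0.57, beside -1.80 for Eng. The relation of Eng to these cells was not tested. The epithelial median in PICT minus PCT was -0.59.

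**Figure D4:**
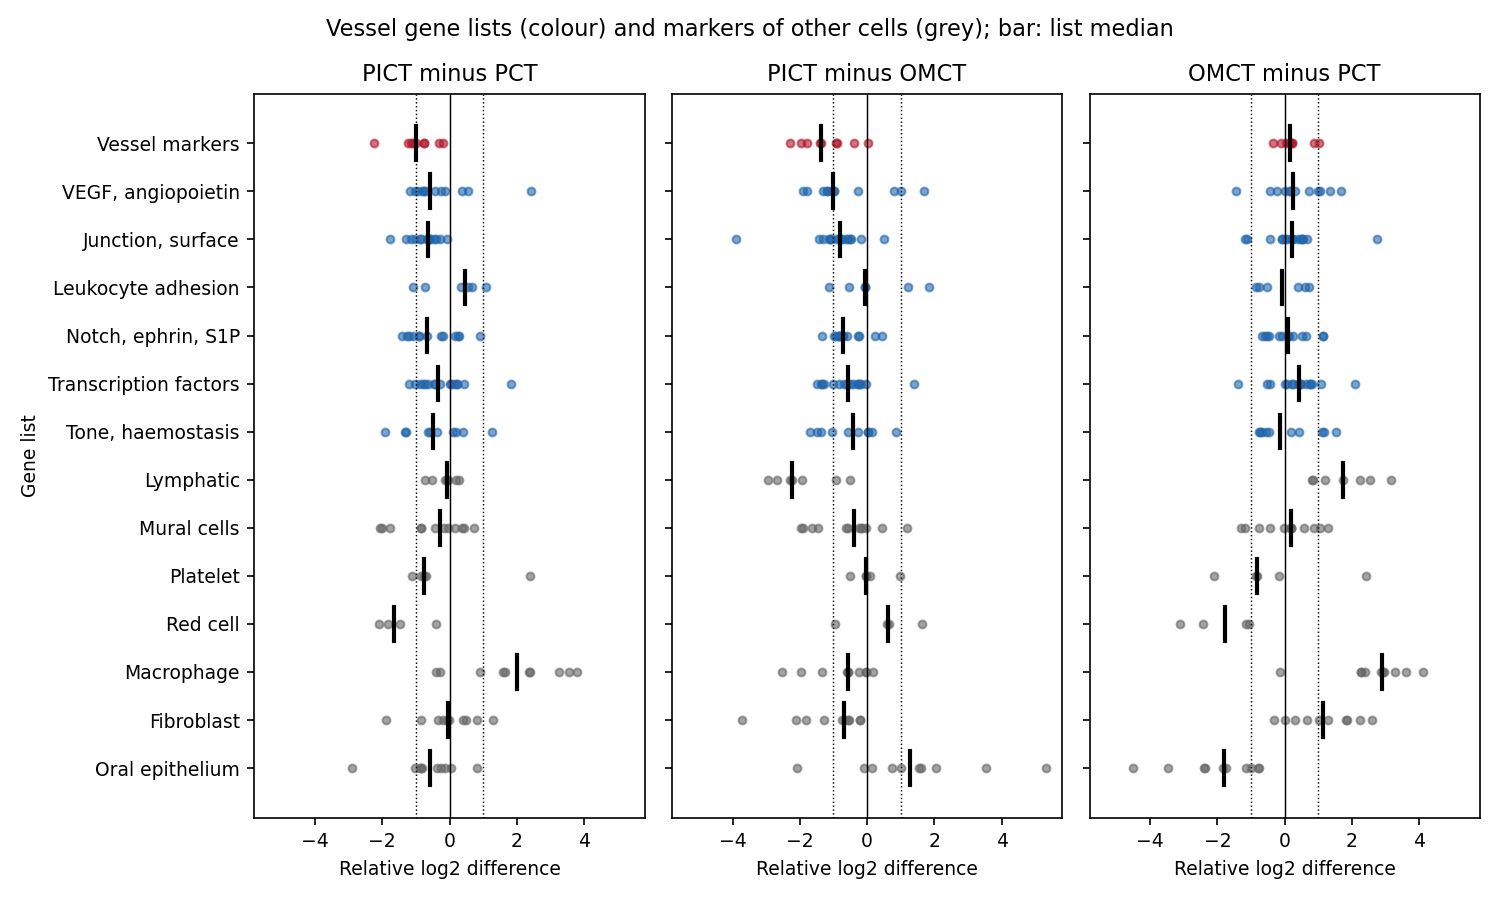
Relative log2 difference of every measured gene of the vessel markers, the 6 other vessel lists and 7 lists of other cells, in the 3 comparisons, with each list's median as a bar and the 2-fold lines dotted. In PICT minus PCT the vessel marker median is -0.99 and that of macrophages 2.01; in PICT minus OMCT the vessel and lymphatic medians are -1.38 and -2.25 and that of oral epithelium 1.28.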

How the data were processed

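The deposited table holds a linear intensity for each of 31099 probe sets on 3 arrays, and how the authors summarised or scaled them is unstated in the sources used here. RNA was purified on columns, amplified and biotin-labelled with a GeneChip in vitro transcription kit, per the labels' protocols. Probe sets were named from the platform annotation: 20832 had 1 symbol, 436 several and 9831 none. Where a gene had several, the one brightest on average (log2) stood for it. The pseudocount of 8.56 is the 20th percentile of all values, and each array's median log2 value was subtracted. This log2 scale understates folds of dim genes. With 1 array per tissue, counts past 2-fold and medians replace tests, and the number of arrays limits the precision. Other vessel genes named are, in each list and comparison, at most the 4 furthest past 2-fold in each direction, apart from values given for contrast. Apln in OMCT minus PCT was named after its value was seen, as were Gp9, Gp5, Slc4a1, Alas2 and Madcam1. Members, lists and thresholds were chosen with earlier results of these data known. The calling was tested on simulated data. Python 3.11.15, numpy 2.4.6 and pandas 2.3.3 were used.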

Additional observations from a re-analysis of the deposited data

How the results depend on the processing

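The median member difference was recomputed as deposited, after quantile normalization, after scaling to an equal trimmed mean, with pseudocounts of 48.4 (the median of all values) and 1, and with the mean over a gene's probe sets, and it kept its sign in all 3 comparisons. As deposited it was -0.39 for PICT minus PCT and 0.79 for OMCT minus PCT, by construction, since the array medians differ. The count of members lower in PICT than in PCT was 1 as deposited and 1 with the pseudocount of 48.4, and 5 with the pseudocount of 1, against 4. The count higher in OMCT than in PCT was 2 as deposited, 2 with the pseudocount of 48.4 and 0 with the pseudocount of 1, against 1. Counts in PICT minus OMCT, and counts without the filter on level, did not move. Of 27 single-gene differences, 4 changed sign as deposited (Tek and Kdr in PICT minus PCT, Tek and Emcn in OMCT minus PCT), where all genes shift by the same amount, under 2-fold. Under each other setting at most 2 changed sign. No paired analysis was possible because each tissue has 1 array, and no array could be left out. The depth of an array is not measured by reads; only Plvap in PICT lay near the array median.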
